A study of Mus musculus with 12 samples.

Results

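The endothelial marker genes are 42 genes, chosen by name, that mark the cells lining blood vessels. The list was made with earlier results of these data known. All 42 genes were measured among the 18193 genes tested in brown adipose tissue. They were described in 4 groups: 29 pan-endothelial genes, 6 arterial genes, 5 capillary and venous genes, and 2 angiopoietin ligands. The tissue came from 12 male ob/ob mice on normal chow, 3 months of age, whose leptin gene makes no working hormone; all groups share that genotype. In the anti-FGFR1 group 6 mice had received 1 mg/kg of an agonistic antibody to the receptor FGFR1, given once into the peritoneum. In the control IgG group 6 pair-fed mice had received control IgG, and tissue of both groups was collected on day 4. Each mouse gave 1 one-colour array of whole dissected tissue, and the values are log2 expression. The mean level of 40 of the 42 members lay above the median of all probe sets, and the 8 measured brown adipocyte markers had a list mean of 12.08 or more on every array.

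Endothelial cells form the inner wall of vessels. They hold to each other through junction proteins such as VE-cadherin, claudin 5 and PECAM1, and they are kept quiescent by angiopoietin 1 acting on the receptor TIE2 (Tek), with TIE1 as partner. Notch signalling and SOX17 favour the arterial fate, whereas EPHB4 marks veins. Brown fat has a dense capillary bed, which brings fatty acids and oxygen to the adipocytes and carries heat away. Several of these genes are also active elsewhere: Pecam1 in leukocytes and platelets, Fli1 and Tal1 in blood cells, Cav1 in adipocytes, and Angpt1 mainly in perivascular and stromal cells rather than endothelium.

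Promoters of 3 members that fell, Robo4, Tek and Tie1, and of 1 that did not differ, Rhoj, are shown because the ETS factors ERG and FLI1, both members, are known regulators of endothelial promoters. The stretches are the 250 bases before the annotated start of each gene, from RefSeq on GRCm38.p6, written 5′ to 3′ along the gene. Capitals mark AGGAAG, a 6-base form of the ETS site, on either strand. It was the only string searched, so shorter or other forms of the ETS site are not marked.
Robo4 (chr9:37401722-37401971, plus strand): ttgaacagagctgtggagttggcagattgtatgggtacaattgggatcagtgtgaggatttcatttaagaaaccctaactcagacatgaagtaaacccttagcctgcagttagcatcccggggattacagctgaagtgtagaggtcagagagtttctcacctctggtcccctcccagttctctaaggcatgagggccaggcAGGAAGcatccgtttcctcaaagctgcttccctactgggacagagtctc
Tek (chr4:94739039-94739288, plus strand): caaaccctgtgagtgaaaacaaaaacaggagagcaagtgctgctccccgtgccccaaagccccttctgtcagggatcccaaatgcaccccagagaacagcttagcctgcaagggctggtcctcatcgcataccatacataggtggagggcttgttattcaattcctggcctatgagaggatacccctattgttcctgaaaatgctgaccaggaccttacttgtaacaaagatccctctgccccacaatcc
Tie1 (chr4:118489850-118490099, minus strand): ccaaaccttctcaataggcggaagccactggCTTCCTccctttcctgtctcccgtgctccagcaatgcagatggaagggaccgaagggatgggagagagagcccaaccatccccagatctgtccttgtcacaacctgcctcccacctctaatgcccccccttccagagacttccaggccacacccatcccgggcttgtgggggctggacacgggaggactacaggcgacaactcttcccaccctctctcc
Rhoj (chr12:75308063-75308312, plus strand): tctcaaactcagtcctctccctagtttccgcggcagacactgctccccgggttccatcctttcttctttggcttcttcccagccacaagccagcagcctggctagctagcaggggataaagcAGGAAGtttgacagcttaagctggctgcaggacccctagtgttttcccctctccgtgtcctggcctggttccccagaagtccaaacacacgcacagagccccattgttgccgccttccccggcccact

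The string AGGAAG was present in the windows of Robo4, Tie1 and Rhoj. In Robo4 it began 49 bases before the start and in Rhoj 128 bases before it, both on the gene's strand. In Tie1 it lay on the opposite strand, its first base 219 bases before the start. The window of Tek held no match to these letters, which does not show that it lacks shorter ETS sites. Promoters were matched by symbol for 22 of the 42 members. AGGAAG was found in 11 of them, 4 of 6 members that fell and 7 of 16 that were not called. Some members have several annotated starts. Counted by window, AGGAAG was in 12 of the members' 28 windows (42.9%), and in 29.5% of all 32851 windows of the same length. Rhoj, which did not differ between the groups, held the same string as Robo4 and Tie1.

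The endothelial genes were lower after anti-FGFR1, by modest amounts and not in every member. Of 42 members, 11 fell and 0 rose, where a call is a Benjamini-Hochberg adjusted p under 0.05 over all genes by limma. In the same fit 27 members had an unadjusted p under 0.05, as did 4081 of all 18193 genes. The 11 were Pecam1, Cldn5, Rasip1, Plvap, Tie1, Tek, Robo4, Esam, Angpt1, Egfl7 and S1pr1. Of all genes tested, 8.03% were called, 5.09% lower and 2.94% higher, against 26.2% of the members called lower. Because the list was made with earlier results of these data known, this contrast is a description only. Of the 1461 genes called, 63.4% were lower, a share that was 50.9% after another quantile normalization, with 10 members lower and 1 (Apln) higher. In 7 members all 6 anti-FGFR1 arrays lay below all 6 controls and in 0 above, where 3.55% of all genes were so separated downwards and 1.57% upwards. The median log2 fold change, always anti-FGFR1 minus control IgG, was -0.15 over the members and 0.01 over all genes. By group, 9 of 29 pan-endothelial genes, 1 of 5 capillary and venous genes, 1 of 2 angiopoietin ligands and 0 of 6 arterial genes fell. In whole tissue, fewer endothelial cells and less of these RNAs per cell cannot be told apart.

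The 3′ to 5′ ratio of the Actb and Gapdh control probe sets, a sign of RNA quality, was higher after anti-FGFR1, at 0.20 ± 0.03 against 0.16 ± 0.03 on the log2 scale (SD, 6 arrays per group; exact permutation p = 0.0368, two-sided). In a model that included this ratio 4 members fell and 0 rose by limma: Pecam1 and Angpt1 remained, Sox18 and Gja4 were added, and 688 genes were called in all against 1461 without it. The 9 members that lost their call were then at log2 fold changes between -0.17 (S1pr1) and -0.35 (Tek). Tek (-0.34 without the ratio, -0.35 with it) and Esam (-0.29 and -0.30) did not shrink, and Plvap hardly did (-0.37 and -0.35). Their standard errors rose, for Tek from 0.07 to 0.09. The others shrank, Cldn5 the most, from -0.52 to -0.31. The part of the ratio in these differences was not tested further. Skeletal muscle markers were low on 2 arrays, control IgG replicate 6 and anti-FGFR1 replicate 5, with list means of 10.02 and 6.55 against 10.92 to 12.19 on the other arrays. Without both arrays 9 members fell and 0 rose, Egfl7 and S1pr1 losing their calls.

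**Figure D1:**
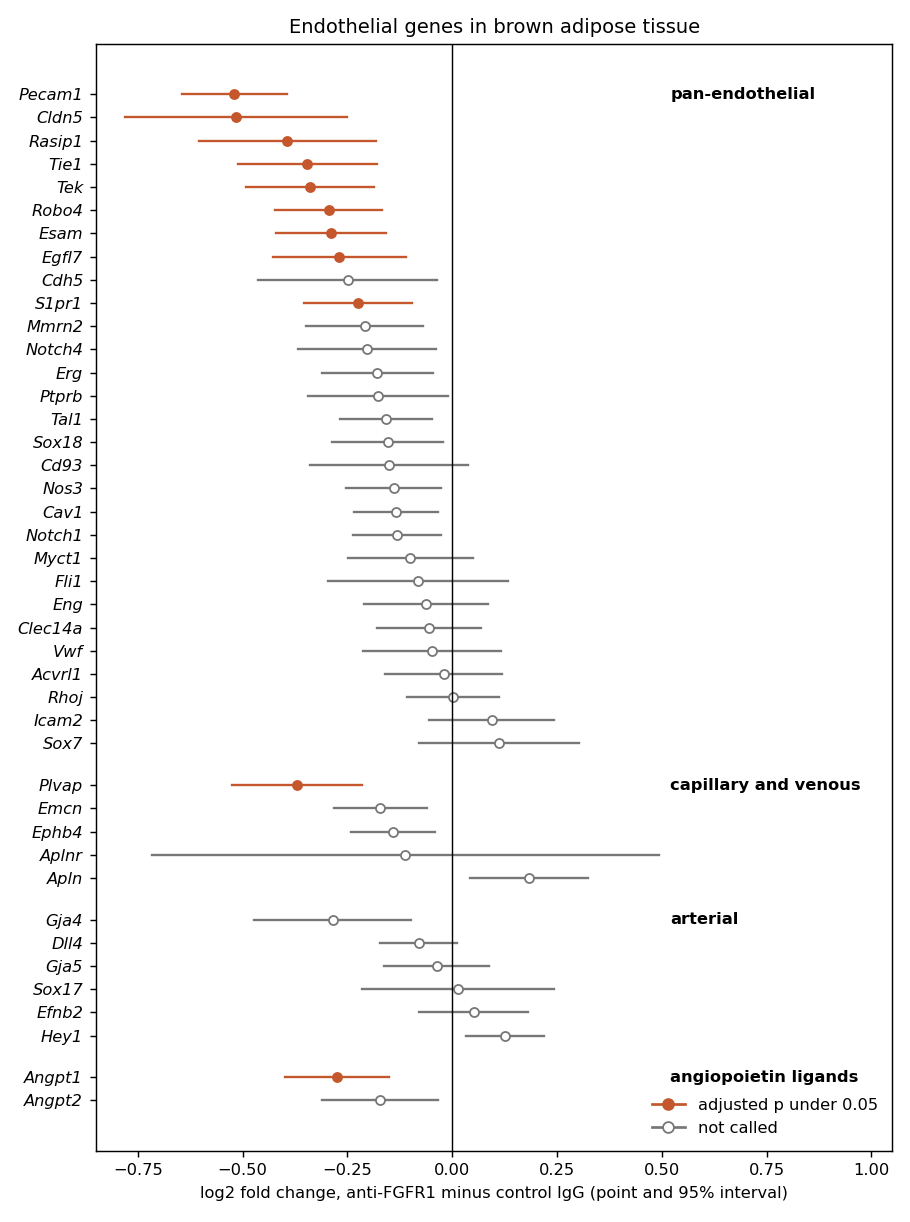
Log2 fold change of each of the 42 endothelial genes, anti-FGFR1 minus control IgG (point) with its 95% interval (bar), by group; filled points passed an adjusted p of 0.05. The 11 filled points all lie below 0, from -0.22 (S1pr1) to -0.52 (Pecam1). Open points lie above 0 for 3 of 29 pan-endothelial, 1 of 5 capillary and venous and 3 of 6 arterial genes.

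Among the junction, adhesion and guidance genes read first, Pecam1, Cldn5, Esam and Robo4 fell, and Cdh5 and Icam2 were not called. Sets by function here and below only order the text. They are not among the 4 groups, and no share is drawn from them. Pecam1 encodes an adhesion molecule of the borders between endothelial cells. Its control values ran from 10.11 through a median of 10.29 to 10.35, and the anti-FGFR1 values from 9.63 through 9.73 to 9.91, so that the groups did not overlap. It was 1.43-fold lower, and the difference on the log2 scale was -0.52 ± 0.06 (standard error here and below; limma adjusted p = 0.000133). Cldn5, the claudin that seals endothelial tight junctions, was 1.43-fold lower as well, but spread more. Controls ran from 9.80 through 10.11 to 10.63 and anti-FGFR1 arrays from 9.36 through 9.64 to 9.90, with 5 of 6 below every control. Its log2 fold change was -0.52 ± 0.12 (limma adjusted p = 0.0186) and became -0.31 ± 0.14 once the ratio was modelled (limma adjusted p = 0.271). With the same covariate Pecam1 was at -0.44 ± 0.07 (limma adjusted p = 0.00433).

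Esam, an adhesion molecule of endothelial tight junctions, went from 10.78, 10.88 and 11.02 (lowest, median and highest control) to 10.43, 10.60 and 10.77 after anti-FGFR1. All 6 anti-FGFR1 arrays lay below all controls, and the log2 fold change was -0.29 ± 0.06 (limma adjusted p = 0.00908). Robo4, a guidance receptor that stabilises the vessel wall, went from 9.31, 9.44 and 9.56 to 8.97, 9.15 and 9.27, again without overlap (-0.29 ± 0.06, limma adjusted p = 0.0072). Robo4 and Esam are close neighbours on chromosome 9, with 2 protein-coding genes annotated between them. Cdh5, VE-cadherin, the defining cadherin of the endothelial junction, was not called on the probe set used. Controls ran from 9.95 through 10.10 to 10.34 and anti-FGFR1 arrays from 9.52 through 9.93 to 10.09, with 3 of 6 below every control (-0.25 ± 0.10, limma adjusted p = 0.15). Its dimmer probe set passed among all probe sets, at -0.29 ± 0.06 (limma adjusted p = 0.0125), as did the mean of both (-0.27, limma adjusted p = 0.0255). Icam2, a ligand for leukocyte integrins, differed by 0.09 ± 0.07 (95% interval -0.05 to 0.24) and was not called, although only 2 coding genes separate it from Pecam1 on chromosome 11.

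**Figure D2:**
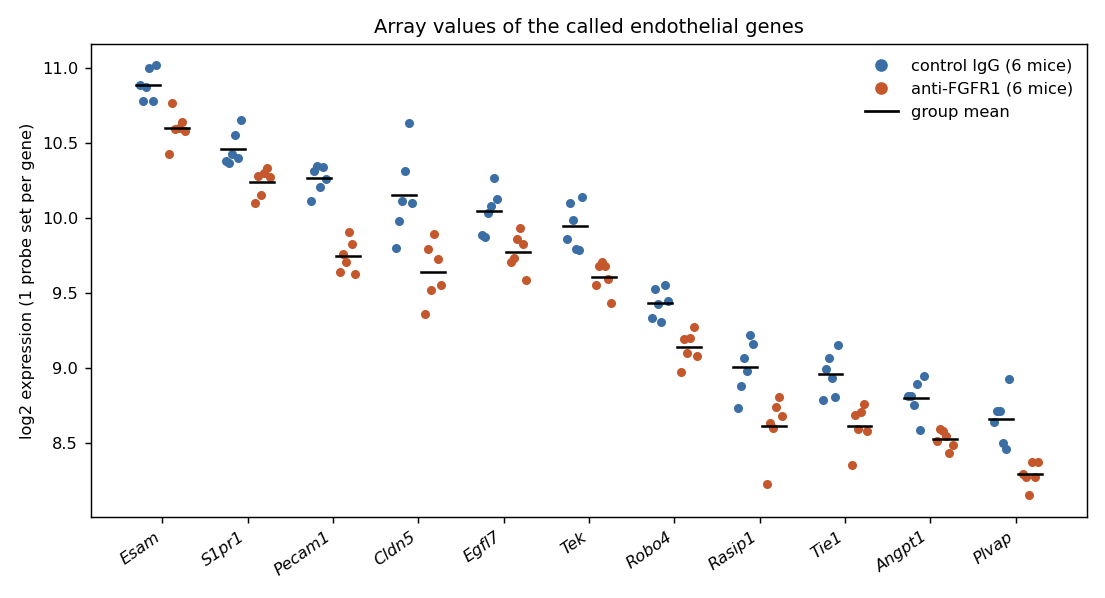
Log2 expression on each array (points; left control IgG, right anti-FGFR1, 6 mice each) with the group mean (bar) for the 11 endothelial genes that fell. In 7 of them, among these Pecam1 and Plvap, every anti-FGFR1 point lies below every control point; Cldn5, Rasip1, Egfl7 and Angpt1 overlap.

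The angiopoietin and TIE genes all lay below 0. Tek, Tie1 and Angpt1 were called, and Angpt2 was not. Tek encodes TIE2, the angiopoietin receptor. Its controls ran from 9.79 through 9.92 to 10.14 and the anti-FGFR1 arrays from 9.43 through 9.64 to 9.70, without overlap, and its log2 fold change was -0.34 ± 0.07 (limma adjusted p = 0.00911). The partner receptor Tie1 went from 8.79, 8.96 and 9.16 to 8.35, 8.64 and 8.76, also without overlap (-0.35 ± 0.08, limma adjusted p = 0.013). In the model with the ratio neither receptor was called, Tek at -0.35 ± 0.09 (limma adjusted p = 0.0582) and Tie1 at -0.27 ± 0.10 (limma adjusted p = 0.162).

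Angpt1, the activating ligand of TIE2, had controls of 8.59, 8.81 and 8.95 and anti-FGFR1 values of 8.43, 8.53 and 8.59. Of the 6 anti-FGFR1 arrays, 5 lay below every control, and the log2 fold change was -0.28 ± 0.06 (limma adjusted p = 0.00877). It was still called in the model with the ratio (-0.30 ± 0.08, limma adjusted p = 0.0427). The dimmer probe set of Angpt1 was at -0.10 ± 0.08, and with the mean of both probe sets the call was lost (-0.19, limma adjusted p = 0.0743). Angpt2, the ligand stored in endothelial cells that can oppose angiopoietin 1, differed by -0.17 ± 0.06 (limma adjusted p = 0.127), with a dimmer probe set at 0.02. Without control IgG replicate 1 it was called (-0.21, limma adjusted p = 0.0453). Ptprb, the phosphatase VE-PTP that restrains TIE2, was not called on its brightest probe set (-0.18 ± 0.08, limma adjusted p = 0.193). Both its other probe sets passed, at -0.31 ± 0.07 and -0.36 ± 0.09, and the mean of the 3 was at -0.28 (limma adjusted p = 0.0073).

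Among the other surface, signalling and matrix genes of the endothelium, 3 fell. Rasip1, an interactor of RAS-like GTPases needed for lumen formation, went from 8.73, 9.03 and 9.22 in controls to 8.22, 8.65 and 8.80. It was 1.31-fold lower, with 4 of 6 anti-FGFR1 arrays below every control (-0.39 ± 0.10, limma adjusted p = 0.0239). Leaving out control IgG replicate 3 ended its call (-0.38, limma adjusted p = 0.0547), and it was at -0.22 ± 0.11, uncalled, in the model with the ratio. S1pr1, the sphingosine 1-phosphate receptor that strengthens the endothelial barrier, went from 10.37, 10.41 and 10.65 to 10.10, 10.28 and 10.33, without overlap (-0.22 ± 0.06, limma adjusted p = 0.0333). Egfl7, a secreted protein of the vessel wall, went from 9.87, 10.06 and 10.27 to 9.59, 9.78 and 9.94, with 5 of 6 anti-FGFR1 arrays below every control (-0.27 ± 0.07, limma adjusted p = 0.0375).

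These last 2 calls were the least stable of the 11. That of S1pr1 was lost without any 1 of 6 arrays (control IgG replicates 3, 4 and 6, anti-FGFR1 replicates 1, 3 and 6), with folds between -0.19 and -0.23 in those fits. That of Egfl7 was lost without any 1 of 8 (control IgG replicates 3 to 6, anti-FGFR1 replicates 1, 2, 5 and 6), with folds between -0.23 and -0.28. The other 3 probe sets of Egfl7 were at -0.29, -0.23 and -0.10 and did not pass, and when its probe sets were averaged Egfl7 was not called (-0.22, limma adjusted p = 0.158). Egfl7 lies directly beside Notch1 on chromosome 2, with 0 coding genes between, and Notch1 differed by -0.13 ± 0.05.

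Of the remaining genes of this kind 0 were called. Mmrn2, the vessel matrix protein multimerin 2, was at -0.21 ± 0.07 (limma adjusted p = 0.0662) with 5 of 6 anti-FGFR1 arrays below every control; 2 of its 3 other probe sets passed, at -0.20 and -0.25. It was called without anti-FGFR1 replicate 3 (-0.24, limma adjusted p = 0.0499) and when its probe sets were averaged (-0.17, limma adjusted p = 0.0351). Its binding partners Cd93 and Clec14a, lectin-like receptors of endothelium, were at -0.15 ± 0.09 and -0.06 ± 0.06. Nos3, endothelial nitric oxide synthase, was at -0.14 ± 0.05 (limma adjusted p = 0.127), and Cav1, the coat protein of caveolae, at -0.13 ± 0.05 (limma adjusted p = 0.0963). The TGF-beta family receptors Eng, endoglin, and Acvrl1, ALK1, differed by -0.06 ± 0.07 and -0.02 ± 0.07.

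Vwf, von Willebrand factor, the clotting protein stored in endothelial granules, had controls of 8.10, 8.29 and 8.53 and anti-FGFR1 values of 8.06, 8.27 and 8.33, which overlapped almost fully. Its log2 fold change was -0.05 ± 0.08, with a 95% interval of -0.21 to 0.12. Rhoj was at 0.0015 ± 0.05 (95% interval -0.11 to 0.11), which leaves out a fall of the size of Pecam1. Myct1 was at -0.10 ± 0.07 on the probe set used, while its other 3 probe sets lay between 0.03 and 0.13.

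The transcription factors of the endothelium were not called. Erg, the ETS factor that maintains endothelial identity, was at -0.18 ± 0.06 with 4 of 6 anti-FGFR1 arrays below every control (limma adjusted p = 0.0957). Its relative Fli1 was at -0.08 ± 0.10, and at -0.22 ± 0.07 on its dimmer probe set. Sox18 was at -0.15 ± 0.06 (limma adjusted p = 0.154), and at -0.28 ± 0.06 in the model with the ratio, where it was called (limma adjusted p = 0.0281). Sox7, of the same SOXF family, lay on the other side of 0, at 0.11 ± 0.09. Tal1, a factor of blood and endothelial precursors, was at -0.16 ± 0.05 (limma adjusted p = 0.0786) with all 6 anti-FGFR1 arrays below the control median, and was called without control IgG replicate 2 (-0.19, limma adjusted p = 0.0286).

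None of the 6 arterial genes was called by limma, and 2 had an unadjusted p under 0.05, as did 4081 of all 18193 genes. The folds of the 6 fell on both sides of 0, with 3 of 6 below it and a median of -0.01. Gja4, connexin 37 of arterial gap junctions, was the lowest, at -0.29 ± 0.09 (limma adjusted p = 0.0605). Its anti-FGFR1 values lay close together, from 7.66 through 7.69 to 7.76, whereas controls ran from 7.71 through 7.95 to 8.28. Gja4 was called in the model with the ratio (-0.42 ± 0.10, limma adjusted p = 0.0363), without control IgG replicate 4 (-0.34, limma adjusted p = 0.0222) and without control IgG replicate 5 (-0.33, limma adjusted p = 0.0366). Gja5, connexin 40, was at -0.04 ± 0.06. Hey1, a Notch target gene, was at 0.13 ± 0.04, with 5 of 6 anti-FGFR1 arrays above every control (limma adjusted p = 0.0957). The Notch ligand Dll4 was at -0.08 ± 0.04, the arterial ephrin Efnb2 at 0.05 ± 0.06 and Sox17 at 0.01 ± 0.11. Sox17 was widely spread in controls (SD 0.29, against 0.07 after anti-FGFR1), and its sign turned under several alternatives. The receptors Notch1 and Notch4, counted as pan-endothelial, were at -0.13 ± 0.05 and -0.20 ± 0.08 (limma adjusted p = 0.120 and 0.131).

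Of the capillary and venous genes only Plvap was called. It encodes the diaphragm protein of endothelial fenestrae and caveolae. Controls ran from 8.46 through 8.67 to 8.93 and anti-FGFR1 arrays from 8.15 through 8.28 to 8.37, without overlap, a 1.29-fold lower level (-0.37 ± 0.07, limma adjusted p = 0.00555). In the model with the ratio Plvap was at -0.35 ± 0.09 and not called (limma adjusted p = 0.0628). Emcn, the sialomucin endomucin of capillaries and veins, was at -0.17 ± 0.05 and just missed the threshold (limma adjusted p = 0.0568), with 4 of 6 anti-FGFR1 arrays below every control. It passed without control IgG replicate 4 (-0.20, limma adjusted p = 0.0362). Ephb4, the venous ephrin receptor, was at -0.14 ± 0.05 (limma adjusted p = 0.0801) and passed without control IgG replicate 1 (-0.16, limma adjusted p = 0.048).

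Apln, a peptide ligand counted here with the capillary genes, had anti-FGFR1 values of 8.81, 8.91 and 9.14 against 8.62, 8.72 and 8.92 in controls. Apln was not called (0.18 ± 0.07, limma adjusted p = 0.109), and which cells of the tissue made it was not tested. It was the highest fold among the 42 members, and it passed after another quantile normalization (0.22, limma adjusted p = 0.0489). Its receptor Aplnr varied the most of all members from mouse to mouse, from 7.86 through 8.40 to 9.50 in controls and from 7.51 through 8.39 to 8.89 after anti-FGFR1. The difference of Aplnr was -0.11 ± 0.28, with an interval of -0.72 to 0.49, so that neither a fall nor a rise of the size of the called genes can be seen or left out at this spread. The dimmer probe set of Aplnr was at 0.02 ± 0.14.

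**Figure D3:**
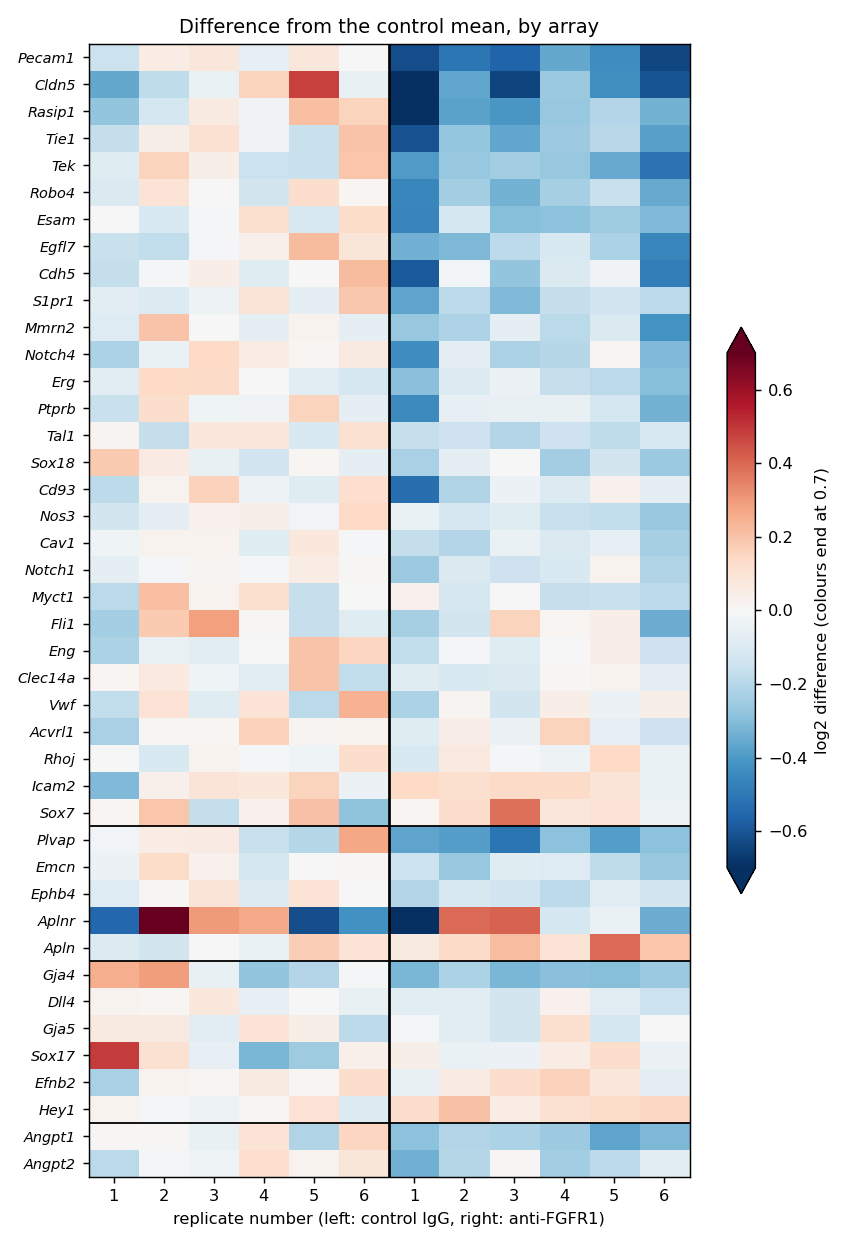
Each endothelial gene on each array as the log2 difference from its control mean (blue lower, red higher, colours ending at 0.7; rows in the order pan-endothelial, capillary and venous, arterial, angiopoietin ligands; columns by replicate number, control IgG left, anti-FGFR1 right). Anti-FGFR1 replicates 1 and 6 are the bluest columns, and the row of Aplnr is mottled in both groups.

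The treated mice were not equally low. Anti-FGFR1 replicate 1 held the lowest value of its group in 19 members and replicate 6 in 16, against 0 to 4 in each of the other 4 treated mice. Replicate 1 lay below every control in 28 members and replicate 6 in 24, and the other 4 in 17 or 18. The share of all genes below every control on a single array is not given here. These counts therefore only compare the treated arrays with each other. Over all 42 members, the median difference from the control mean was -0.24 on anti-FGFR1 replicates 1 and 6 and between -0.09 and -0.12 on the other treated arrays. Control IgG replicate 1 was at -0.09 by the same measure, close to anti-FGFR1 replicate 3, and the other controls lay between -0.01 and 0.02. Among the controls, replicate 1 held the lowest value in 18 members, and the mean of its 42 members, 9.17, lay just above the highest treated array (also 9.17 when rounded, 9.166). Control replicate 1 also had the highest 3′ to 5′ ratio of its group, 0.22 against 0.14 to 0.16 in the other controls.

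Other probe sets were available for 20 members, 33 in all. Of these, 21 had the sign of the probe set used and 12 the opposite one; 5 passed as lower and 0 as higher when every probe set was tested. The 5 belonged to Cdh5, Mmrn2 (2) and Ptprb (2), 3 genes that were not called on the probe set used. In 11 of the 20 members all probe sets shared 1 sign. Of the 11 called genes, 9 had a single probe set, so their calls have no second measurement on these arrays; Egfl7 and Angpt1 had others, all below 0.

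**Figure D4:**
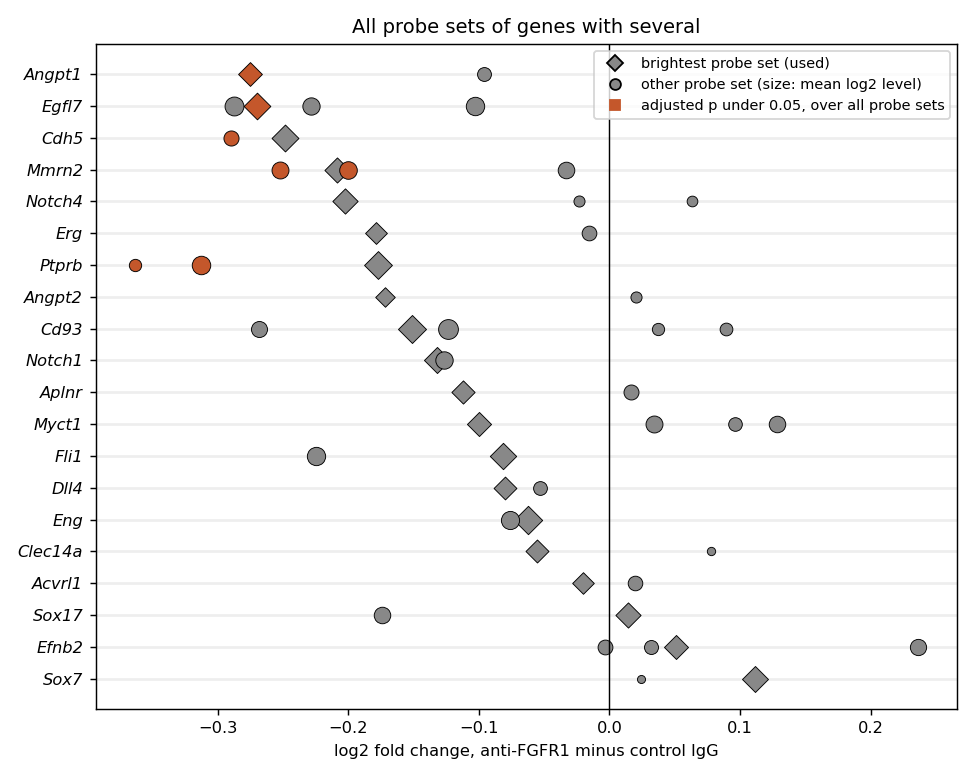
Log2 fold change of every probe set for the 20 endothelial genes with several (diamond, the brightest, used for the tests; circle, the others, larger when brighter; coloured when adjusted p was under 0.05 over all probe sets). Ptprb, Cdh5 and Mmrn2 have coloured circles at -0.20 to -0.36 beside uncoloured diamonds, and Myct1 and Sox17 have circles on the other side of 0.

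A further list of 45 endothelial genes outside the 42 showed falls and some rises: 9 fell, 2 rose and 34 were not called, with a median of -0.11. The 2 that rose were Nid2 (0.50 ± 0.13, limma adjusted p = 0.0275) and Unc5b (0.18 ± 0.05, limma adjusted p = 0.0216). The largest falls by test were those of Tinagl1, a matrix protein (-0.46 ± 0.06, limma adjusted p = 0.000273), Mcam, an adhesion molecule shared with mural cells (-0.64 ± 0.09, limma adjusted p = 0.000758), and Procr, the protein C receptor (-0.72 ± 0.11, limma adjusted p = 0.0013). Kdr, the main VEGF receptor of endothelium, ran from 10.26 through 10.44 to 10.72 in controls and from 10.35 through 10.50 to 10.57 after anti-FGFR1, and was not called (0.02 ± 0.07). Of 12 genes listed under capillary lipid transfer, 3 fell and 0 rose. The 3 were Angptl4 (-0.47), the HDL receptor Scarb1 (-0.35) and Gpihbp1, the capillary anchor of lipoprotein lipase (-0.19). Which cells of the whole tissue made the RNAs of this list was not tested. These 3 falls are therefore not a reading of the endothelium alone.

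Markers of other cells moved in their own ways, and their part in the endothelial result was not tested. Of 12 smooth muscle and pericyte markers 6 fell and 0 rose, and the mean of the list ran from 9.95 to 10.13 in controls and from 9.69 to 9.88 after anti-FGFR1. Of 12 macrophage markers 0 fell and 3 rose, with means from 9.72 to 10.35 and from 9.96 to 10.38. Of 6 fibroblast and preadipocyte markers measured, 1 fell and 3 rose (list means 11.04 to 11.57 and 11.26 to 11.72). Markers of lymphatic endothelium were also read. Of 6 measured, 0 passed by limma and 0 were under 0.05 before adjustment, but 5 lay below 0. Mmrn1 was at -0.34 ± 0.16, Lyve1 at -0.09 ± 0.16 and Pdpn at -0.02 ± 0.17. At this spread a fall of the size of S1pr1 (-0.22) is not left out for Mmrn1, Lyve1 and Pdpn. List means ran from 7.41 to 7.80 in controls and from 7.32 to 7.68 after anti-FGFR1. The difference between the lists was not tested. Platelet markers were all 5 slightly above 0 (0.04 to 0.16) and 0 passed limma's test, also before adjustment (0 under 0.05). Of 7 lymphocyte markers 1 rose, of 4 red blood cell markers 1 fell, Alas2 (-0.41), and of 8 brown adipocyte markers 2 rose. Of the 8 skeletal muscle markers 0 were called by limma and 0 were under 0.05 before adjustment, all with folds between -0.57 and -0.76; anti-FGFR1 replicate 5 was the array lowest in them.

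**Figure D5:**
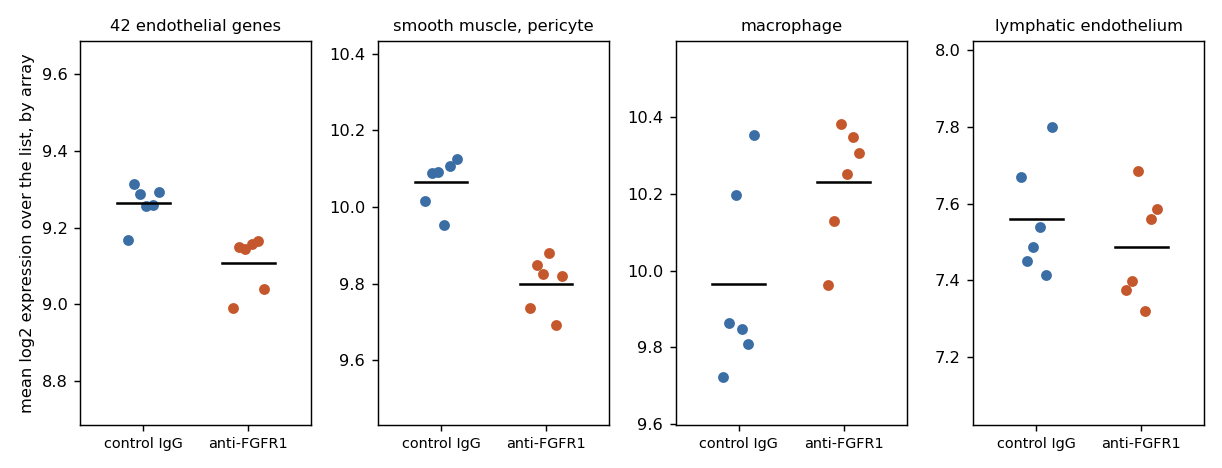
Mean log2 expression over each list on each array (points; 6 control IgG and 6 anti-FGFR1 mice) with the group mean (bar), for the 42 endothelial genes and for markers of 3 other cell types; each panel spans 1 log2 unit. The endothelial and smooth muscle panels show all treated arrays below the controls, whereas the macrophage and lymphatic panels overlap.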

How the data were processed

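Whole brown adipose tissue of 12 mice was measured on 12 arrays, 1 per mouse, grouped by the labels' titles. The authors deposited log2 values for 45101 probe sets; the submitters' processing notes name RMA and limma, without versions. RMA corrects background, normalizes and summarises probes, and tends to compress small changes of dim probe sets. No detection call, build or batch is given in the sources used here. Values ran from 3.16 to 14.86, with array medians of 7.19 to 7.23, and no 2 arrays shared more than 0.0665% of values.

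Probe sets with 1 gene (34945; 932 had several, 9211 were unlisted) were named through the platform table and updated to GRCm38.p6 symbols by identifier. The brightest probe set per gene over all arrays was kept. Limma 3.58.1 (R 4.3.3, lmFit, eBayes, two-sided) tested 18193 genes without covariates, with Benjamini-Hochberg adjustment and a threshold of 0.05. On simulated data the fit called 40% of genes changed by 0.25 log2 and 99% of those changed by 0.5. Far fewer genes were changed there than the 1461 called in the real data, and the noise of each gene was independent. These rates therefore need not hold for the real data. Smaller changes were not simulated, so a member without a call may still differ by a small amount. A probe set test over all 34945 gave the values of other probe sets. Array measures were compared by exact permutation tests (scipy 1.17.1). Named genes are all 42 members and up to 3 called genes with the smallest p from the further endothelial and capillary lipid transfer lists. The lists of cell type markers are given mainly by counts and ranges, with few genes named. Kdr was named whatever its value, and Nid2 and Unc5b as the further endothelial genes called higher. The members, lists and their groups were chosen with earlier results of these data known. Alternatives were another quantile normalization, median centring, the mean of a gene's probe sets, a filter on dim genes, an intensity trend, array weights, the replicate number as a block, a covariate for the 3′/5′ ratio of control probe sets, and each array left out; 2 on skeletal muscle were added after seeing the data. Precision is limited by the 6 arrays per group.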

Additional observations from a re-analysis of the deposited data

Results flagged for a closer look

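Among 84 sets of 6 values, 42 members in 2 groups, 3 held an array far from the rest by Dixon's test, where about 1 in 20, or 4.2, would be so by chance. Icam2 was lowest on anti-FGFR1 replicate 6 at 8.60, against 8.73 on the next array. Rasip1 was lowest on anti-FGFR1 replicate 1 at 8.22, against 8.60, and it was still called without that array. Efnb2 was lowest on control IgG replicate 1 at 8.49, against 8.73.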

How the results depend on the processing

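The count of members called lower stayed between 10 and 16 under the alternatives run on all 12 arrays, except in the model with the 3′/5′ ratio, where it was 4 and 688 genes were called in all. Leaving out 1 array gave 8 to 13 members lower and 0 higher, 1043 to 1698 genes called, and a median of the members between -0.18 and -0.13. One member, Apln, was called higher (1 against 0) after another quantile normalization and with the replicate block. Another quantile normalization turned the balance of all calls from 63.4% lower to 50.9% lower, with 10 of the 11 members still called. Same-numbered arrays did not all deviate together (correlations of -0.29 to 0.33), so the numbers were not taken to pair mice; the replicate block gave 12 members lower, including all 11, and added Erg (-0.18). Arrays did not all correlate best with their own number.

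Signs turned only for members without a call. In the model with the 3′/5′ ratio Vwf was at 0.0298, Eng at 0.0201, Acvrl1 at 0.0874, Rhoj at -0.0144 and Sox17 at -0.1838. With probe sets averaged Clec14a was at 0.0108, Myct1 at 0.0395 and Sox17 at -0.08. Rhoj was at -0.0030 after median centring, and at -0.0023 without both arrays low in muscle markers, where Sox17 was at -0.0004; with the muscle mean in the model Rhoj was at -0.0234 and Sox17 at -0.0057. Leaving out 1 array gave Rhoj -0.0265 to 0.0257, Sox17 -0.0497 to 0.1124, Acvrl1 -0.0658 to 0.012, Aplnr -0.2365 to 0.0926 and Vwf -0.0849 to 0.0005. The cause was not tested.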
